A study of Mus musculus with 6 samples.

Results

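Immediate early genes are transcribed within minutes of a stimulus such as a growth factor, stretch or injury, from factors that are already present in the cell, and their short-lived mRNAs then decline. The module described here holds 37 of them, chosen by gene symbol from the 55487 rows of a count table of mouse aorta. It comprises the Fos and Jun subunits of the transcription factor AP-1, the Egr zinc-finger factors and Atf3, the Ier genes, the dual-specificity phosphatases (Dusp) that switch off MAP kinases, the Nr4a nuclear receptors, Klf factors, and genes of mRNA decay, growth arrest and cytokine feedback. In smooth muscle the group is known to respond to mechanical stretch, angiotensin and serum.

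The 6 aortas were those of 3 controls and of 3 mice with an inducible, smooth muscle-specific Prdm16 knockout (iSM KO), all male, uninjured (baseline) and on a C57BL/6 background. Every mouse carried the Myh11-CreERT2 transgene, which drives a tamoxifen-inducible recombinase in smooth muscle cells from the Y chromosome, and every mouse was given tamoxifen (1 mg per day, 10 injections from 8 weeks of age), then a washout of 2 weeks and 60 further days. The iSM KO mice were homozygous for a floxed Prdm16 allele (F/F), wild-type alleles (W/W) being present in the controls, so that only smooth muscle cells of the former could lose Prdm16, a zinc-finger transcription regulator. The adventitia, the outer layer of the vessel, was removed and total RNA was sequenced after depletion of ribosomal RNA. Libraries held 24911609 to 40460467 counts, and 3 counts correspond to 0.0736 to 0.126 CPM (counts scaled to library size, with edgeR's TMM factors). Prdm16 was at 183, 223 and 179 CPM in controls 1 to 3 and at 93.8, 113 and 79.8 CPM in iSM KO mice 1 to 3, a log2 fold change of -1.03 ± 0.14 (SE, FDR 0.00265). These counts cover the whole gene. The paper describes removal of a floxed exon only, which leaves a frameshifted null allele in smooth muscle cells. Transcripts of that allele and of other cell types can still be counted, so the remaining level does not measure intact Prdm16. Summed smooth muscle markers were at 22400 to 27400 CPM in the controls and 24000 to 26400 CPM in the iSM KO aortas, and T and B cell markers stayed under 0.6 CPM. Of the 7 smooth muscle markers, Myocd, the coactivator of serum response factor, was higher in the iSM KO aortas (216, 206 and 162 CPM against 329, 296 and 290 CPM; log2 fold change 0.65 ± 0.12, FDR 0.0109), and its part in the values below was not tested. Here and below, FDR is the Benjamini-Hochberg adjusted p of edgeR's quasi-likelihood test over the 16565 genes tested. That test weighs the difference between the groups against the spread between libraries within a group, with information shared across genes. In bulk aorta, fewer cells of a type and less RNA per cell cannot be told apart.

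Of the 37 members, 35 passed the filter on low counts. Fos, Dusp1, Nr4a2, Btg2, Ier2 and Dusp6 were lower in the iSM KO aortas, and Maff and Gadd45b were higher. The 6 lower members are 17.1% of those tested, where 547 of all 16565 genes, or 3.3%, were lower at this FDR; the 2 higher members are 5.71%, where 705 genes, or 4.26%, were higher. With a fold change over 2 as a further threshold, Fos, Dusp1 and Nr4a2 were lower, 8.57% of the members tested against 1.38% of all genes, and the higher members stayed under this fold (1.4% of all genes were higher at it). The median log2 fold change of the members was -0.23, and that of all tested genes was -0.014. In all, 23 members were on the lower side of zero and 12 on the higher side, and 52.4% of all genes were on the lower side. The module was chosen with earlier results of these data known. Here and below, its shares beside those of all genes are therefore a description.

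The promoters of 5 called members are shown because they hold the cAMP response element, the palindrome TGACGTCA bound by CREB and ATF proteins, or its half-site TGACG. Sequences are from RefSeq on GRCm38.p6, each on the strand of its gene, and they end at the base before the annotated start, except that the stretch of Dusp1 ends 47 bases earlier, where an annotated exon begins. Capitals mark each half-site on either strand (TGACG or CGTCA).
Fos, chr12:85473690-85473889, plus strand: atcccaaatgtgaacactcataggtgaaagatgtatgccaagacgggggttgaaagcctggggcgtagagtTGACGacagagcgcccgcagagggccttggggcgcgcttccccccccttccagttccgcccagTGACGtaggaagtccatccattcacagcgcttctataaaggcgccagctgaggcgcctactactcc
Dusp1, chr17:26508520-26508672, minus strand: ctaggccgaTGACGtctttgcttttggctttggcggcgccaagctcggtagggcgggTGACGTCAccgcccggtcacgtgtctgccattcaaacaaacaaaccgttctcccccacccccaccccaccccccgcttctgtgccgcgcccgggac
Nr4a2, chr2:57124004-57124203, minus strand: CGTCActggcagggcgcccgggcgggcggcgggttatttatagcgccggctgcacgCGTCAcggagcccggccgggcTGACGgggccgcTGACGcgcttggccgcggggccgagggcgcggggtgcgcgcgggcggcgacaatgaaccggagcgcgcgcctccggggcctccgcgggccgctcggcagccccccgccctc
Btg2, chr1:134079156-134079355, minus strand: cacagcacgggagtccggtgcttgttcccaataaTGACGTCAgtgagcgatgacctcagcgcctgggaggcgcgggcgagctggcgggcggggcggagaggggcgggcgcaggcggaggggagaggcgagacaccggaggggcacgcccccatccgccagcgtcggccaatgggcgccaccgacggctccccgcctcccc
Maff, 1 of 3 annotated starts, chr15:79347320-79347519, plus strand: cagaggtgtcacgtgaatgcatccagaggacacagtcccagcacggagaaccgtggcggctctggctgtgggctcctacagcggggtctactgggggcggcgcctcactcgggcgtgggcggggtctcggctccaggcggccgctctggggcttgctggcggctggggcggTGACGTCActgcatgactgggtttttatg

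The whole palindrome stood 143 bases before the start in Dusp1, 166 in Btg2 and 29 in Maff, so that it was found in members that fell and in one that rose. Fos held 2 half-sites and Nr4a2 held 4. For Maff, the start shown is the start whose stretch holds the most half-sites. RefSeq windows of 300 bases, from 250 before to 50 after a start, were present for 30 of the 37 members, and 7 (Fosl1, Egr1, Egr3, Ier2, Klf10, Myc and Arc) had none. TGACGTCA was found on either strand in 3 of the 30 members (10%) and in 2.03% of 27025 genes. TGACG, which is part of it, was in 18 members (60%), called and uncalled, and in 23.0% of genes. Of the called members, Dusp6 and Gadd45b had windows without TGACG, and Ier2 had no window. A CArG box, the binding motif of serum response factor, was in Egr2, Dusp5 and Zfp36 (10%) and in 1.81% of genes. The EGR motif GCGNGGGCG was in 12 members (40%) and in 6.27% of genes. Such matches are letters in a window and say nothing of binding in the aorta. Sites outside the windows, or in members that had no window, were not searched.

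Fos and its relatives encode the AP-1 subunits that pair with Jun proteins, and Fos itself (ENSMUSG00000021250, chromosome 12, 85473890 to 85477273, plus strand) had the largest fall of the module. Its level was 50.3, 213 and 39.3 CPM in controls 1 to 3 and 13.9, 14.4 and 13.9 CPM in iSM KO mice 1 to 3. Each control lay above each iSM KO library, control 2 stood far above the other controls, and the iSM KO libraries were within 1 CPM of one another. Its change on the log2 scale was -2.85 ± 0.58 (SE, FDR 0.019). Without control 2 it was -1.67 ± 0.12 (FDR 0.000493), a smaller change with a smaller error. The call did not hold without iSM KO 1 (FDR 0.0682) or without iSM KO 2 (FDR 0.0819), at log2 fold changes of -2.84 and -2.87.

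Fosb, the close relative of Fos, was at 33.6, 107 and 22.0 CPM in the controls and 21.5, 12.5 and 18.2 CPM in the iSM KO aortas. The groups touched without overlapping, and the difference missed the threshold (log2 fold change -1.65 ± 0.51, FDR 0.0921). Fosl2, per kilobase the most abundant of the family in the iSM KO aortas, was at 98.9, 168 and 97.1 CPM in the controls and 169, 120 and 124 CPM in the iSM KO libraries, with overlapping groups (0.18 ± 0.22, FDR 0.667). Fosl1 was low, at a mean of 0.412 CPM in the controls and 0.655 CPM in the iSM KO aortas (0.69 ± 0.53, FDR 0.49). In control 1 it was near the detection limit (0.119 CPM). It lies in part across Ccdc85b on the other strand, which was at 73.5 to 106 CPM.

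Per kilobase of exon, a scale on which genes can be compared, Fos made up 57.7%, 72.3% and 54.8% of the summed Fos family in controls 1 to 3 and 21.6%, 29.5% and 27.0% in the iSM KO aortas. Fosl2 made up 27.6%, 13.8% and 32.8% in the controls and 64.1%, 59.6% and 58.6% in the iSM KO aortas. The leading member per kilobase was therefore Fos in each control and Fosl2 in each iSM KO library. This order rests on the lengths used, which join all annotated exons (2352 bp for Fos and 9680 bp for Fosl2). In CPM, without scaling by length, Fosl2 was above Fos in controls 1 and 3 as well. The summed family was at 37.1, 126 and 30.5 CPM per kb in the controls and 27.3, 20.7 and 21.9 CPM per kb in the iSM KO aortas. These shares were chosen after the values were seen and carry no test.

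The Jun proteins are the partners of Fos in AP-1. Junb, a Jun relative with weak activating capacity, was at 77.7, 104 and 60.9 CPM in the controls and 50.7, 56.3 and 40.3 CPM in the iSM KO aortas, with no overlap and an FDR just over the threshold (-0.72 ± 0.19, FDR 0.0517). DESeq2 called it lower (FDR 0.00174), as did the fit without control 3. Jun was at 188, 291 and 147 CPM against 163, 95.7 and 137 CPM, and its groups overlapped (-0.66 ± 0.25, FDR 0.167). Jund, which most cells transcribe steadily, was at 242, 251 and 270 CPM in the controls and 243, 240 and 257 CPM in the iSM KO aortas. It was the most abundant of all 37 members per kilobase in both groups (152 and 148 CPM per kb) and differed by -0.04 ± 0.08 (FDR 0.791). Junb overlaps the 3′ end region of Prdx2 on the other strand, and Prdx2 was at 45.5 to 63.6 CPM in the controls and 47.1 to 52.4 CPM in the iSM KO aortas. The summed Jun family was at 238, 287 and 234 CPM per kb in the controls and 219, 199 and 214 CPM per kb in the iSM KO aortas.

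**Figure D1:**
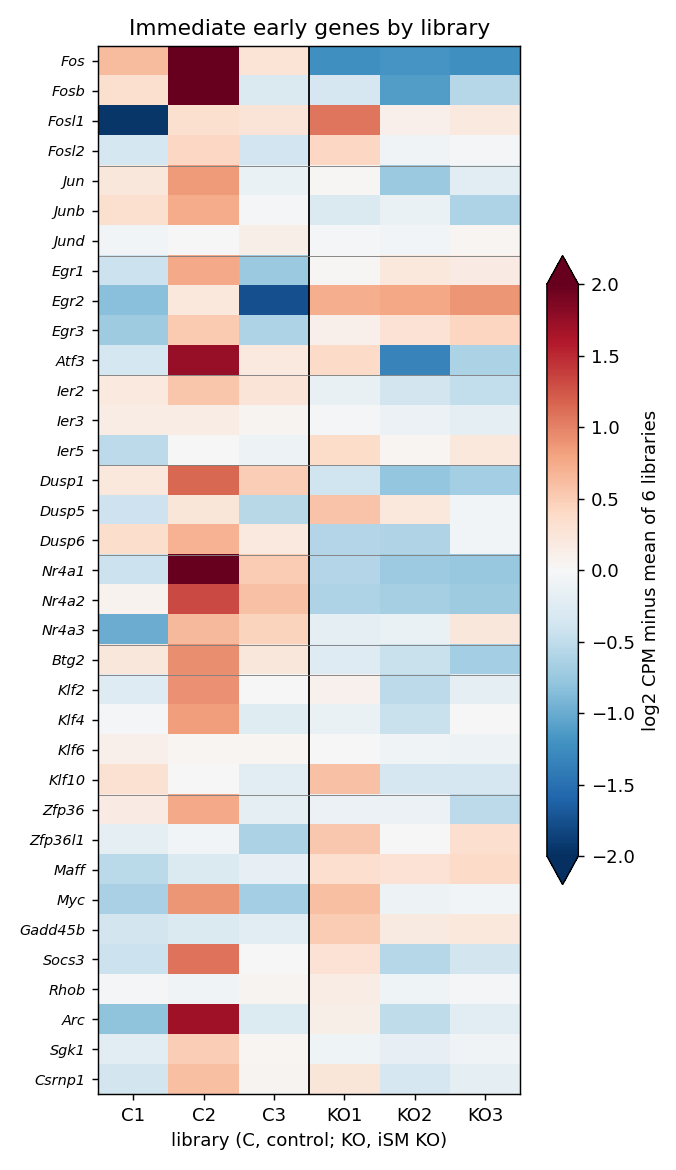
Heat map of the 35 tested members (rows, in family order) in the 6 libraries (columns C1 to C3, control; KO1 to KO3, iSM KO), as log2 CPM minus the mean of the 6 libraries, with colors ending at 2 in each direction. The column of control 2 is red in most rows, Fos and Dusp1 are blue in all 3 iSM KO columns, and Maff and Gadd45b are red there.

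Among the phosphatases, Dusp1 (ENSMUSG00000024190, chromosome 17, minus strand, 26505590 to 26562128), which dephosphorylates MAP kinases in the nucleus, was at 164, 316 and 200 CPM in controls 1 to 3 and 108, 83.1 and 88.4 CPM in iSM KO mice 1 to 3. Each iSM KO library was below each control. The log2 fold change was -1.28 ± 0.22 (FDR 0.00898), and -0.96 ± 0.13 (FDR 0.00633) without control 2. Without iSM KO 2 the FDR was 0.051. Dusp1 overlaps 640 bases of Ergic1 on the other strand, and Ergic1 was at 104, 127 and 86.7 CPM against 98.4, 92.4 and 83.5 CPM. Per kilobase, Dusp1 held rank 3 of the members in the controls (68.5 CPM per kb) and rank 8 in the iSM KO aortas (28.1 CPM per kb).

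Dusp6 (ENSMUSG00000019960, chromosome 10, plus strand, 99263231 to 99267489), a cytoplasmic MAP kinase phosphatase, was at 24.1, 30.5 and 21.7 CPM in the controls and 12.6, 12.5 and 18.1 CPM in the iSM KO aortas. There was no overlap, and iSM KO 3 lay closest to the controls. Its log2 fold change was -0.82 ± 0.17 (FDR 0.0236). The call was lost on leaving out control 1 (FDR 0.0589), control 2 (FDR 0.054), iSM KO 1 (FDR 0.0851) or iSM KO 2 (FDR 0.106). Dusp5, a nuclear MAP kinase phosphatase, was at a mean of 3.23 CPM in the controls and 4.45 CPM in the iSM KO aortas (0.45 ± 0.25, FDR 0.337). Dusp2 stayed below 0.34 CPM in each library and was not tested. Of the 7 other Dusp genes read beside them, none passed the threshold with edgeR, and their median log2 fold change was 0.25. At an unadjusted p under 0.05, 3 were higher, and 1 was higher with DESeq2. The shares of all genes at that p or with DESeq2 were not computed, so these counts have no background beside them.

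The Nr4a genes encode orphan nuclear receptors that act without a known ligand. Nr4a2 (ENSMUSG00000026826, chromosome 2, minus strand, 57106830 to 57124003) was at 9.37, 22.1 and 13.4 CPM in the controls and 5.82, 5.62 and 5.45 CPM in the iSM KO aortas. As for Fos, the iSM KO values lay close together and below each control. Its log2 fold change was -1.42 ± 0.27 (FDR 0.0145), and -1.01 ± 0.17 (FDR 0.013) without control 2. Leaving out iSM KO 1 or iSM KO 2 gave an FDR of 0.0504 or 0.0648.

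Nr4a1 showed a like arrangement with a larger spread. It was at 46.9, 253 and 89.8 CPM in controls 1 to 3 and at 42.1, 38.3 and 37.5 CPM in the iSM KO aortas. Control 1 was only slightly above iSM KO 1, and control 2 was far above both. The log2 fold change of -1.73 ± 0.49 missed the threshold (FDR 0.0711), as did -0.79 ± 0.23 without control 2 (FDR 0.0748), but it passed without control 1 (-2.13, FDR 0.0165). Nr4a3 overlapped between the groups (10.1, 31.4 and 27.3 CPM against 17.6, 18.4 and 23.5 CPM; -0.21 ± 0.34, FDR 0.761).

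Btg2 (ENSMUSG00000020423, chromosome 1, minus strand, 134075170 to 134079120), an antiproliferative gene and cofactor of mRNA deadenylation, was at 91.2, 149 and 91.5 CPM in the controls and 65.6, 57.2 and 49.0 CPM in the iSM KO aortas. All iSM KO libraries were lower, with a log2 fold change of -0.95 ± 0.19 (FDR 0.0197) with all libraries and -0.67 ± 0.12 (FDR 0.0146) without control 2. The call was lost without iSM KO 2 (FDR 0.0826) and without iSM KO 3 (FDR 0.0537).

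Ier2 (ENSMUSG00000053560, chromosome 8, minus strand, 84661331 to 84662852), a nuclear protein made early in the serum response, was at 47.9, 61.2 and 49.9 CPM in the controls and 37.7, 32.6 and 29.8 CPM in the iSM KO aortas. Its controls were closer together than those of Fos, and they again did not overlap the iSM KO libraries. The log2 fold change was -0.67 ± 0.12 (FDR 0.0112), or -0.55 ± 0.11 (FDR 0.0213) without control 2, and the FDR was 0.0627 without iSM KO 2. Ier3, a regulator of cell survival, was at 22.2, 22.1 and 20.8 CPM against 19.6, 18.5 and 17.4 CPM, a small non-overlapping difference that missed the threshold (-0.23 ± 0.09, FDR 0.165). Ier5 lay the other way, with all iSM KO libraries above all controls (mean 16.1 CPM in the controls and 21.2 CPM in the iSM KO aortas; 0.40 ± 0.15, FDR 0.149).

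Both members that rose differed little among the controls. Maff (ENSMUSG00000042622, chromosome 15, plus strand, 79346621 to 79359076), a small Maf protein that lacks a transactivation domain, was at 18.4, 21.9 and 24.0 CPM in the controls and 33.8, 32.7 and 35.2 CPM in the iSM KO aortas. Every iSM KO library exceeded every control, with a log2 fold change of 0.67 ± 0.11 (FDR 0.00649). The call held in each of the 6 fits that left out a library, with FDRs up to 0.0318.

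Gadd45b (ENSMUSG00000015312, chromosome 10, plus strand, 80930073 to 80932204), a stress sensor that binds MAP kinase kinases, was at 10.4, 11 and 11.5 CPM in the controls and 19.1, 15.3 and 15.6 CPM in the iSM KO aortas. Here the controls were nearly level and iSM KO 1 stood above the other iSM KO libraries. The log2 fold change was 0.61 ± 0.12 (FDR 0.0142), and the FDR without iSM KO 1 was 0.0565. Zfp36l1, whose protein binds AU-rich elements and shortens the life of mRNAs, was at a mean of 130 ± 26.2 CPM (SD, n = 3) in the controls and 195 ± 34.8 CPM (SD, n = 3) in the iSM KO aortas, above the controls in each iSM KO library but short of the threshold (0.58 ± 0.17, FDR 0.0731). Its paralog Zfp36 (tristetraprolin) was at 73.8, 111 and 58.3 CPM against 60.6, 60.6 and 45.8 CPM, with overlapping groups (-0.54 ± 0.21, FDR 0.176).

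**Figure D2:**
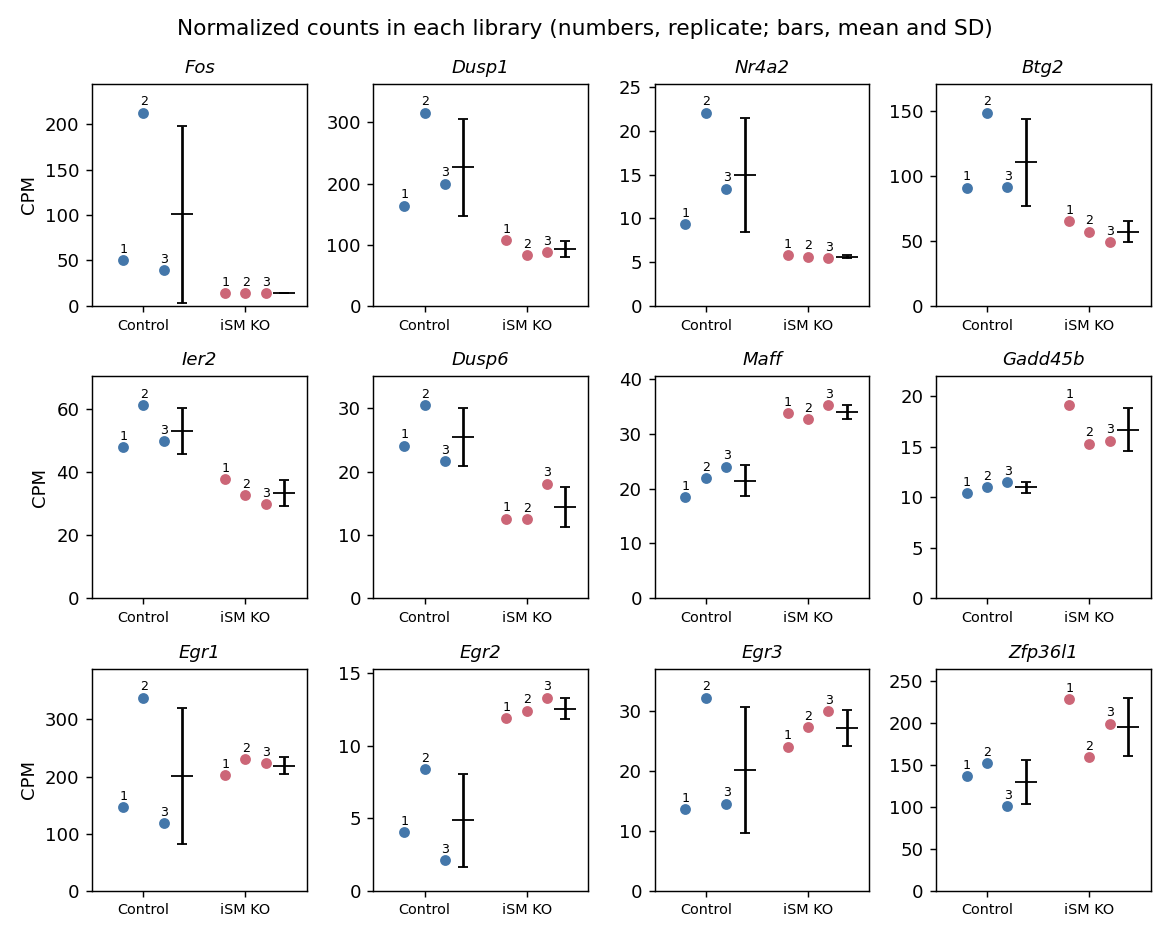
CPM (vertical axis, linear, from 0) of 12 members in the control and iSM KO libraries; each point is a library, with its replicate number above it, and bars give the mean and SD of 3. The iSM KO points of Fos and Nr4a2 nearly coincide below the controls, Maff and Gadd45b lie above them, and Egr1 and Egr3 of control 2 lie above all other libraries.

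No Egr gene was called lower with Fos. Egr1, a zinc-finger factor induced by serum and injury, was at 147, 338 and 119 CPM in controls 1 to 3 and at 203, 231 and 223 CPM in the iSM KO aortas. The iSM KO libraries thus lay between control 2 and the other controls, and the log2 fold change was 0.12 ± 0.32 (FDR 0.86). Without control 2 it was 0.72 ± 0.11 (FDR 0.0103), without control 1 it was -0.06 (FDR 0.942) and without control 3 it was -0.15 (FDR 0.825), so that its direction changed with the controls included.

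Egr2, which binds the same DNA motif as Egr1, was at 4.06, 8.38 and 2.14 CPM in the controls and 11.9, 12.4 and 13.3 CPM in the iSM KO aortas. It was above the controls in each iSM KO library, control 2 included. The log2 fold change of 1.33 ± 0.37 missed the threshold (FDR 0.0628), passed it without control 2 (1.99 ± 0.24, FDR 0.00401), and limma-voom with sample weights called it higher. Egr3 was at 13.7, 32.3 and 14.6 CPM against 24.1, 27.4 and 30.1 CPM, overlapping at control 2 (0.42 ± 0.29, FDR 0.435; 0.95 ± 0.12, FDR 0.00461 without control 2). Control 2 was the highest control for Egr1, Egr2 and Egr3. Leaving it out by construction raises their log2 fold changes, and their errors shrank, so these passes are a description. Egr4 was below 0.31 CPM in each library and was not tested. Atf3, a stress-induced repressor of the ATF/CREB family, was at 16.6, 71.0 and 24.2 CPM against 27.6, 8.40 and 13.6 CPM, with wide overlap (-1.18 ± 0.55, FDR 0.253).

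The ratio of Egr1 to Fos within a library, per kilobase, was 1.54, 0.83 and 1.58 in controls 1 to 3 and 7.7, 8.42 and 8.4 in iSM KO mice 1 to 3. Control 2, which had the highest level of both genes, did not have the highest ratio. Egr2 to Fos was 0.0559, 0.0272 and 0.0376 against 0.594, 0.594 and 0.661. Egr3 to Fosb was 0.578, 0.426 and 0.938 against 1.59, 3.1 and 2.35, and Nr4a1 to Egr1 was 0.407, 0.959 and 0.968 against 0.264, 0.211 and 0.215. In each of these 4 ratios the groups did not overlap. The ratios were picked after the values were seen and are given as a description, and with 3 libraries against 3 an exact two-sided permutation test cannot go below p = 0.1.

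**Figure D3:**
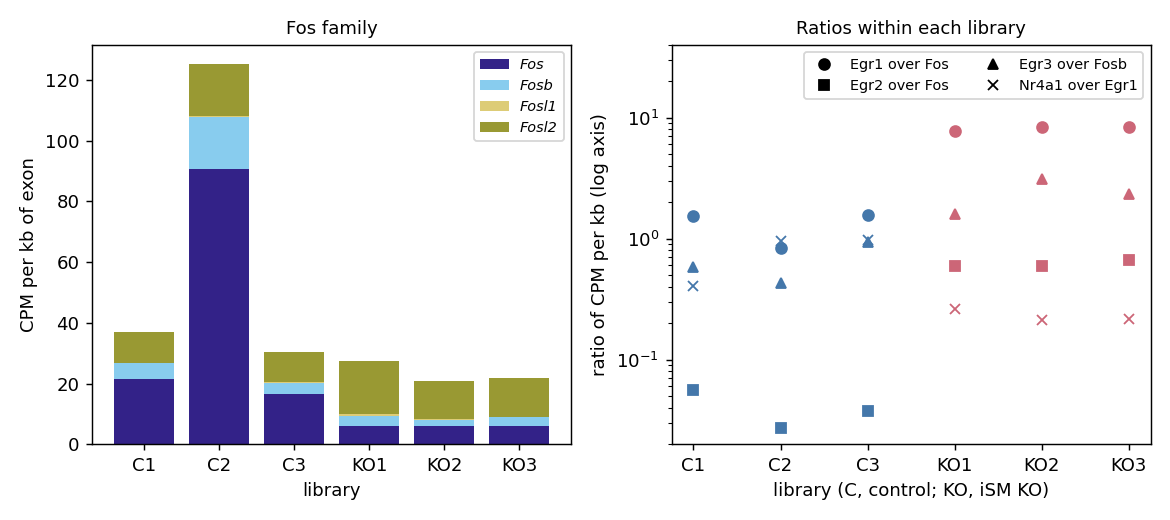
Left, stacked levels of Fos, Fosb, Fosl1 and Fosl2 in CPM per kb of exon in each library, from 0; right, 4 ratios of members in CPM per kb on a log axis, controls in blue and iSM KO libraries in red. Fos takes most of each control bar and Fosl2 most of each iSM KO bar, and Egr1 over Fos lies at 0.83 to 1.58 in the controls and 7.7 to 8.42 in the iSM KO libraries.

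The Klf factors and the remaining members gave no call. Klf6, a ubiquitous zinc-finger factor, was at 190, 182 and 183 CPM against 178, 170 and 165 CPM, non-overlapping but within 0.11 ± 0.07 on the log2 scale in size (FDR 0.406). Rhob, an early-induced small GTPase, was at 260, 254 and 278 CPM against 295, 250 and 263 CPM, with a log2 fold change of 0.03 ± 0.09 (FDR 0.879) whose sign turned in some fits. Klf2 and Klf4, known as flow-responsive genes of endothelium, were at means of 85.5 and 42.3 CPM in the controls and 60.5 and 31.1 CPM in the iSM KO aortas, with overlapping groups and FDRs of 0.332 and 0.337. Klf10, induced by TGF-β, had a mean of 16.2 CPM in both groups.

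Arc, best known from synapses, was at 10.3, 58.2 and 14.9 CPM against 19.5, 12.6 and 15.4 CPM, so that its log2 fold change of -0.82 ± 0.54 (FDR 0.415) rested on control 2 and was 0.34 ± 0.22 (FDR 0.367) without it. Socs3, the feedback inhibitor of JAK-STAT signaling, went from -0.53 ± 0.37 to 0.05 ± 0.27 in the same way, and Nr4a3 and Csrnp1 also changed sign, to 0.10 and 0.07. Myc, the growth regulator, was at a mean of 2.44 CPM in the controls and 2.67 CPM in the iSM KO aortas (0.11 ± 0.42, FDR 0.908), and its log2 fold change was 0.85 without control 2 (FDR 0.128) and -0.16 without iSM KO 1 (FDR 0.896). Sgk1, a kinase induced by serum and glucocorticoids, was at 41.5, 67.8 and 49.5 CPM against 45.3, 42.8 and 45.9 CPM (-0.25 ± 0.16, FDR 0.395). Csrnp1, a nuclear protein induced by axin, had means of 23.2 and 19.9 CPM (-0.22 ± 0.23, FDR 0.617).

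All iSM KO libraries were below all controls for 11 members (31.4% of 35), namely Fos, Fosb, Junb, Ier2, Ier3, Dusp1, Dusp6, Nr4a1, Nr4a2, Btg2 and Klf6, where 13.0% of all tested genes had that order. All iSM KO libraries were above all controls for Egr2, Ier5, Zfp36l1, Maff and Gadd45b (14.3%), where 15.0% of all genes had that order.

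The spread among controls was a feature of the module. Control 2 was the highest control for 28 of the 35 members (80.0%), and for 32.1% of all tested genes. Its log2 CPM exceeded the mean of the other controls by a median of 0.78, with a range from -0.08 to 2.26, and 11 members (31.4%) exceeded it by more than 1, against 2.01% of all genes. The 11 were Fos (2.26), Arc (2.22), Fosb (1.98), Nr4a1 (1.96), Atf3 (1.82), Myc (1.52), Egr2 (1.49), Egr1 (1.35), Socs3 (1.29), Egr3 (1.19) and Klf2 (1.05). The same measure had a median of -0.37 in control 1 and -0.34 in control 3. Among the iSM KO libraries the medians were 0.24, -0.16 and -0.07, with iSM KO 1 the highest for 23 members (65.7%; 34.0% of all genes) and iSM KO 2 the lowest for 21 (60%; 27.9% of all genes).

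**Figure D4:**
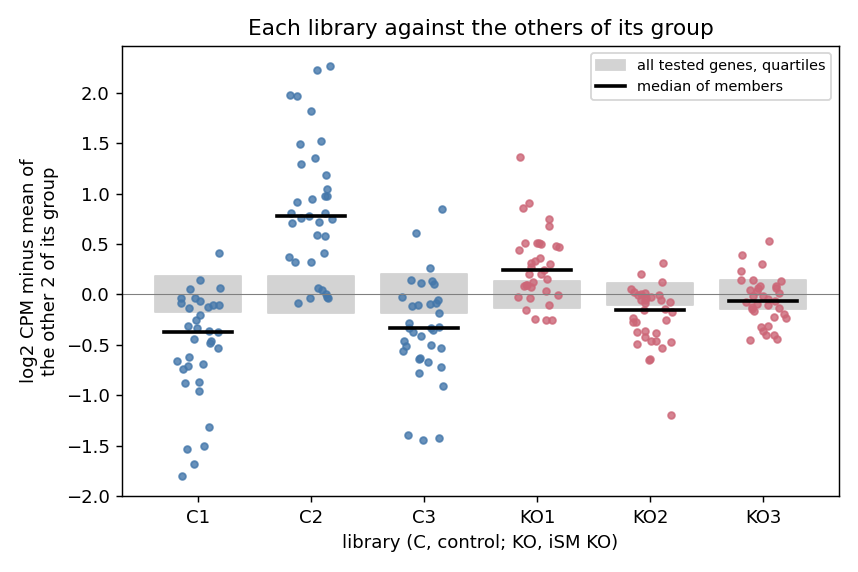
For each library, the log2 CPM of the 35 tested members (points) minus the mean of the other 2 libraries of its group, with the median of the members (black line) and the quartiles of all tested genes (grey). Control 2 has a median of 0.78 and points up to 2.26, whereas the medians of the iSM KO libraries lie from -0.16 to 0.24.

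The SD of log2 CPM was larger among controls than among iSM KO libraries for 29 members (82.9%), and for 65.1% of all genes. Its median was 0.48 in the controls and 0.23 in the iSM KO aortas, against 0.19 and 0.13 over all genes. Fos had the widest spread of the members among controls (1.32) and the narrowest among iSM KO libraries (0.03). Without control 2 the SD was larger among the remaining controls for 17 of 35 members and for 54.2% of all genes, so that the wider spread of the module rested on control 2.

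Because control 2 was so far from the others, the counts past the FDR were repeated without it. Control 2 was picked for its high values in these same members. Leaving it out by construction raises the log2 fold change of members in which it was highest. It can also shrink the error where control 2 stood far from the other controls. The calls without it are therefore a description, and the shares of all genes beside them carry no such choice. Then 5 members were lower (14.3%, against 3.83% of 16667 genes), namely Fos, Ier2, Dusp1, Nr4a2 and Btg2. Higher were 6 members (17.1%, against 4.58% of all genes), namely Egr1, Egr2, Egr3, Zfp36l1 (0.72 ± 0.18, FDR 0.0482), Maff (0.69 ± 0.12, FDR 0.0159) and Gadd45b (0.61 ± 0.13, FDR 0.0333). The median log2 fold change of the members was then -0.02. Control 2 carried the most weight in the values of Fos, Fosb, Nr4a1, Atf3 and Arc and little in those of Ier2, Maff and Gadd45b. Without iSM KO 2, edgeR called no member lower, with FDRs from 0.051 to 0.106 for the 6 called with all libraries. The calls over all genes fell to 516, of which 203 were lower. At an unadjusted p under 0.05 in that fit, 10 members were lower. The share of all genes at that p was not computed, so the 10 cannot be judged against it. Without iSM KO 1, Ier2, Dusp1 and Btg2 were lower and Maff was higher.

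**Figure D5:**
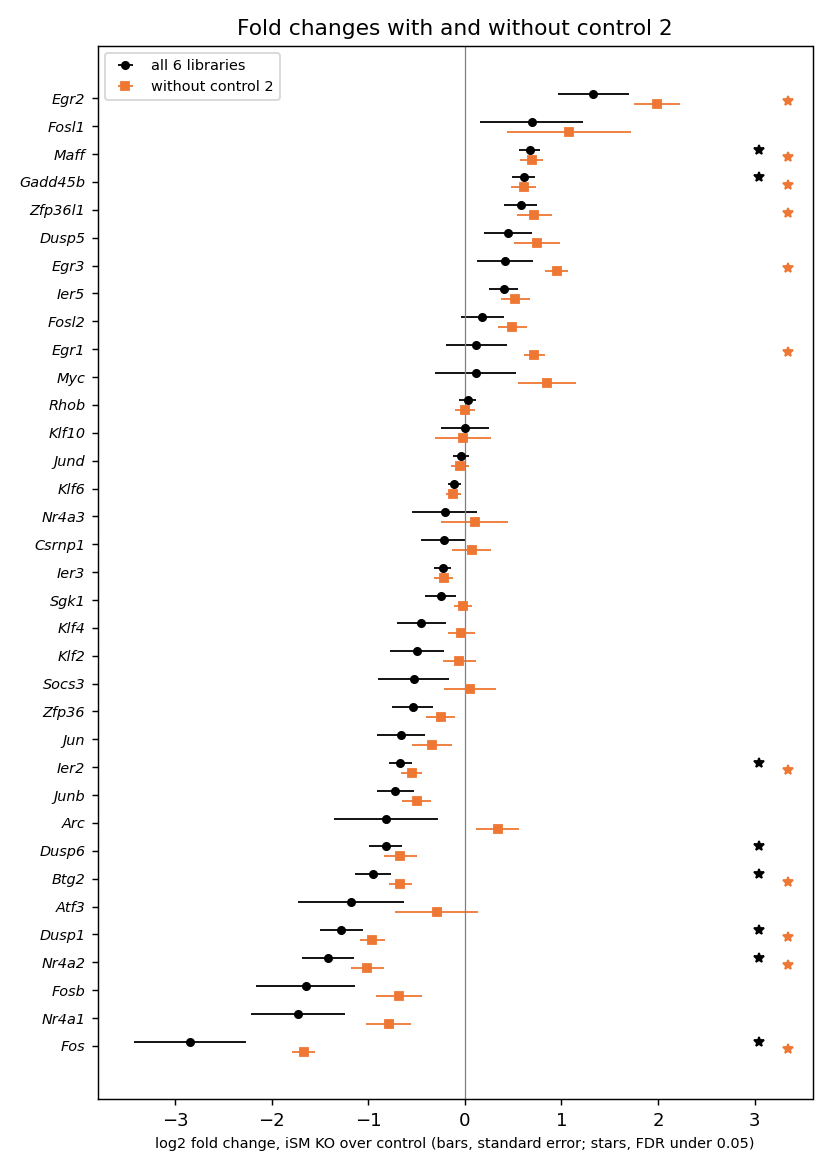
Log2 fold change (iSM KO over control) with its standard error for the 35 tested members, with all 6 libraries (black) and without control 2 (orange); stars mark an FDR under 0.05 in the fit of the same color. Fos moves from -2.85 to -1.67, and Egr1, Egr2, Egr3 and Zfp36l1 have a star only without control 2.

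Kinases and transcription factors upstream of the module (27 genes, among them Srf, Elk1, Creb1 and Rela) gave no call with edgeR, at a median log2 fold change of 0.06. At an unadjusted p under 0.05, 0 were lower and 5 higher, and 4 were higher with DESeq2. The shares of all genes at that p or with DESeq2 were not computed, here or for the slower response genes below. Control 2 was the highest control for 7 of the 27 (25.9%), with a median excess of 0.03. Genes of the slower growth factor and cytokine response, such as Ccn1, Il6 and Ptgs2, had a median of -0.12 over 24 tested genes of 26. Cebpd, a transcription factor of the acute phase, and Mcl1, a survival factor of the Bcl2 family, were lower among them. These are 2 of the 24, where 3.3% of all tested genes were lower. At an unadjusted p under 0.05, 5 of the list were lower and 5 higher, and DESeq2 called 4 lower and 0 higher. Cebpd was at 47.3, 34.4 and 42.7 CPM in the controls and 17.5, 24.8 and 27.0 CPM in the iSM KO aortas (-0.84 ± 0.17, FDR 0.0183). Control 2 had the lowest Cebpd level of the controls, unlike Fos. Mcl1 was at 140, 146 and 156 CPM against 126, 114 and 110 CPM (-0.34 ± 0.08, FDR 0.0419).

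In the heat shock and unfolded protein response list, 1 of 23 genes passed. Hspb1, a small heat shock protein, was at 137, 207 and 138 CPM in the controls and 289, 302 and 216 CPM in the iSM KO aortas (0.74 ± 0.18, FDR 0.0401), and the median of the list was -0.06. Of other Jun, Klf, Zfp36, Atf and Maf relatives, Ier5l, Sgk, Socs and similar genes, 19 of 23 were tested with a median of -0.02. Sgk3, a kinase related to Sgk1, was lower (12.7, 12.7 and 14.2 CPM against 8.76, 9.77 and 9.66 CPM; -0.49 ± 0.10, FDR 0.0245). Control 2 was the highest control for 16 of 24 slower response genes (66.7%, median excess 0.38) and 12 of 23 heat shock genes (52.2%, median excess 0.21), but for 3 of 19 of these relatives (15.8%, median excess -0.04).

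Markers of other cell types also differed between libraries, and their part in the values above was not tested. Of the endothelial markers, 8 of 8 were highest among controls in control 2, and they summed to 874, 1040 and 499 CPM in the controls and 260, 467 and 788 CPM in the iSM KO aortas. None of the 8 passed the threshold with edgeR or DESeq2, and none had an unadjusted p under 0.05, at a median log2 fold change of -0.66. Adipocyte markers summed to 28.1, 119 and 113 CPM in the controls and 12.4, 9.63 and 14.5 CPM in the iSM KO aortas, with 5 of 7 lower (Adipoq, Cidea, Cidec, Plin1 and Fabp4) and a median log2 fold change of -3.26. Fibroblast markers summed to 153 to 332 CPM against 125 to 185 CPM, with Clec3b lower with edgeR, 2 of 6 lower with DESeq2, 6 of 6 lower at an unadjusted p under 0.05 and a median log2 fold change of -0.76. Macrophage markers summed to 28.0 to 32.6 CPM against 11.6 to 35.2 CPM, with a median log2 fold change of -0.55 and 1 of 7 lower with DESeq2. Red cell markers summed to 45.2 to 105 CPM against 6.73 to 144 CPM, with a median of -0.61 and no call. For the marker counts at an unadjusted p or with DESeq2, the shares of all genes were not computed.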

How the data were processed

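Aortic RNA of 3 control and 3 iSM KO mice was analyzed. Reads were aligned and quantified by the authors on Illumina DRAGEN with the Ensembl mouse reference (mm10). The values the authors deposited are 1 estimated count per gene and library, not normalized. Whether counting used strand is not given in the sources used here, so reads of overlapping genes cannot be told apart. Library totals ranged from 24911609 to 40460467, and detection limits cover counting error only.

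Counts were rounded, and genes with a count over 10 in all libraries of at least 1 group were kept (16565 of 55487), as in the study. The test was edgeR 4.0.16 in R 4.3.3 (TMM, glmQLFit, glmQLFTest, no covariates) with Benjamini-Hochberg adjustment. The SE given with an edgeR log2 fold change was derived from that test. It is the size of the log2 fold change divided by the square root of the quasi-likelihood F. CPM are TMM-normalized, and log2 CPM used for excess and SD have a prior count of 2. The study used DESeq2; DESeq2 1.42.0, limma-voom (limma 3.58.1) with sample quality weights, other scalings and filters, a replicate block and leaving out each library were alternatives. Exon lengths and positions are from GENCODE M21 on GRCm38, and promoters from RefSeq. No pair of libraries of the same group matched within sampling noise.

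Named members were Fos, Dusp1, those past the FDR and the most abundant of each family; other members described in full were chosen after their values were seen. The module and all lists were chosen with earlier results of these data known.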

Additional observations from a re-analysis of the deposited data

How the results depend on the processing

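Of 182 alternative values for the 14 members named by rule, 160 kept their direction and side of the threshold, 15 lost the threshold, 3 gained it and 4 changed sign: Egr1 (-0.15 to 0.72 over the fits that left out a library, -0.06 without control 1) and Rhob (-0.004 with limma-voom, and -0.04 to 0.08 when a library was left out). The count of lower members was 6, but 12 with no low-count filter, and 0 to 8 when a library was left out. The count of higher members was 2, but 4 with no low-count filter, 4 at an FDR under 0.10, and 1 to 6 when a library was left out. DESeq2 called 7 lower and 3 higher, limma-voom 6 and 3. Apart from the fit without control 2, the shares of all genes called in the alternative fits were not computed. A rise or fall in these counts therefore need not be particular to the members. With no low-count filter the SE of Fos was 0.35 against 0.58, at log2 fold changes of -2.84 and -2.85. Replicate numbers name the libraries only: same-numbered libraries correlated at -0.132, -0.046 and -0.107 in their deviations, so they share a number and no pairing. With the number as a replicate block, 6 members were lower (Junb in place of Dusp6, FDR 0.0594) and 1 was higher (Gadd45b at FDR 0.0512). The median log2 fold change stayed between -0.43 and -0.02. The count of members with a larger SD in controls was 29 under another prior count or scaling, and 17 to 27 when a control was left out. The median excess of control 2 was 0.78 to 0.79. With 3 libraries a group, 1 library decides several calls. Egr4 and Dusp2 lie too near the detection limit to show a difference, and Fosl1 is near that limit in control 1. The cause of these shifts was not tested.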
